A study of Mus musculus with 23 samples.

Results

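The Dlk1-Dio3 imprinted miRNA cluster was described in small RNA libraries of mouse retina. A list of 48 miRNA loci was used, and a locus counted as measured when the matrix held a mature row under its name. Of these 48 loci, 47 had a mature row among the 903 mature rows, and mir-654 was the locus without one. No row names a 5p or 3p arm, and values are therefore those of whole rows. The 23 libraries came from retinas taken at postnatal day 90. They were from Wild Type C57B mice (WT, 2 libraries) and from P23H+/- knock-in mice, which carry 1 allele of a misfolding-prone rhodopsin and model retinitis pigmentosa. The P23H+/- mice were un-injected (5 libraries), given saline (2 libraries), or treated with DNA nanoparticles of the genomic form of the human rhodopsin gene (human gRHO, 3 libraries) or the mouse gene (mouse gRho, 11 libraries). All groups other than WT thus carried the P23H allele. The dose, route and age at treatment were not given in the sources used here. Summing the eyes of 1 mouse gave 15 mice, of which 7 had received mouse gRho, 2 human gRHO and 1 saline, 3 were uninjected and 2 were WT.

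The Dlk1-Dio3 region is an imprinted domain in which protein-coding genes are expressed from the paternal chromosome and long noncoding RNAs and miRNAs from the maternal one. Its miRNAs lie in arrays beside the noncoding RNAs Meg3, Rian and Mirg and antisense to the retrotransposon-like gene Rtl1, and they are found mainly in placental mammals. Several of them are abundant in brain and neurons, where mir-134 is known for its role in dendritic spines and mir-127 lies opposite the Rtl1 coding sequence. In RefSeq (GRCm38.p6) all 48 loci matched an entry, all on chromosome 12 and the plus strand. They are given below in their order along that strand, in blocks called the Meg3 side (mir-770 to mir-665), antisense to Rtl1 (mir-431 to mir-136), the Rian side (mir-341 and mir-370) and the Mirg side (mir-379 to mir-410).

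The mature sequences of the 6 loci with the highest levels are shown first, since most reads of the cluster came from their rows. They were taken from RefSeq (GRCm38.p6) and are written 5′ to 3′ with the seed, bases 2 to 8, in capitals.
miR-127-5p: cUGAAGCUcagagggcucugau
miR-127-3p: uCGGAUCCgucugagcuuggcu
miR-434-5p: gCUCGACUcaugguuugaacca
miR-434-3p: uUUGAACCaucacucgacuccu
miR-411-5p: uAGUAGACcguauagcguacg
miR-411-3p: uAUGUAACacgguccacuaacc
miR-382-5p: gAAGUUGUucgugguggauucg
miR-382-3p: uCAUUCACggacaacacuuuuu
miR-485-3p: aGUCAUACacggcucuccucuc
miR-369-5p: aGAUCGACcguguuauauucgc
miR-369-3p: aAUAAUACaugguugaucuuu
None of these 11 sequences shared a seed with another of them. The rows with the smallest p for uninjected against WT were those of mir-381, mir-667 and mir-1197. Of these only mir-381 passed the threshold given below.
miR-381-5p: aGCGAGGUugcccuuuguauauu
miR-381-3p: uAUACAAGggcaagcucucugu
miR-667-5p: cGGUGCUGguggagcagugagcacg
miR-667-3p: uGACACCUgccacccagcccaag
miR-1197-5p: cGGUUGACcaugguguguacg
miR-1197-3p: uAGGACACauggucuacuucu
Across the cluster, 92 mature sequences of 19 to 26 bases held 86 distinct seeds, and 6 seeds were each shared by a pair. Both arms had an entry for 44 of the 48 loci, and mir-485 had its 3p arm only. Seeds shared with a missing arm are not counted. Members of 4 of these pairs are shown to make clear how alike they are.
miR-379-3p: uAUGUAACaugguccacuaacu
miR-379-5p: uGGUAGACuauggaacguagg
miR-1193-5p: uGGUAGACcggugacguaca
miR-376c-5p: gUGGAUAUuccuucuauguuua
miR-376b-5p: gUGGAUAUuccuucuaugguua
miR-494-5p: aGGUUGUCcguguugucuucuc
miR-410-5p: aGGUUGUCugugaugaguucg
The first has the seed of miR-411-3p above and differs from it at 2 positions. The sequences of miR-379-5p and miR-1193-5p share the seed GGUAGAC, and those of miR-494-5p and miR-410-5p share GGUUGUC. The pair from mir-376c and mir-376b differs at 1 position, so their rows, like those of mir-379 and mir-411, could hold reads of each other and are uncertain as separate measurements.

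Depth ran from 5968388 to 16048954 mature miRNA reads a library. Levels are given as CPM, the deposited count scaled to those reads. The reads of RNAs this short were counted whole, so CPM was not divided by length. A pair of libraries was poor in photoreceptor and neuronal miRNAs, the left eye of uninjected mouse 2 (its only library) and the right eye of mouse gRho mouse 1. Their summed levels of the photoreceptor list (3 of 3 loci measured) were 198 and 52.9 CPM, against 296 to 1101 CPM in the other libraries. Their neuronal list (6 of 6 loci measured) stood at 4574 and 2612 CPM, against 6141 to 13478 CPM elsewhere. Their vessel list (3 of 3 loci used) stood at 2490 and 2888 CPM, against 746 to 1970 CPM elsewhere. Their lens, cornea and surface epithelium list (7 of 9 loci used) stood at 146 and 322 CPM, against 68.5 to 147 CPM. Their red blood cell list (2 of 4 loci used), at 1723 and 1366 CPM, lay within the range of the others. So did their pigment epithelium and Mueller glia list (2 of 2 loci used), at 134 and 148 CPM, against 53.7 to 298 CPM. The skeletal muscle list (2 of 5 loci used) stood at 1149 and 878 CPM there, against 67.4 to 1089 CPM elsewhere. In bulk tissue, fewer cells of a type, less RNA per cell and a larger share of other tissue cannot be told apart. WT mouse 2 also stood apart, with the lowest normalization factor of the 15 mice (0.734, against 0.897 to 1.26). The titles, read as cage, ear mark and eye, give all uninjected mice the same leading number, another to the human gRHO mice and another to saline. If these are cages, group and cage cannot be told apart.

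Before levels were compared, 10 of the 47 rows were set aside because their counts jumped between a low and a high level from library to library. A row counted as such when it reached 30 reads in a library and its sorted log2(CPM + 0.5) values had a gap of at least 3.5, or of at least 2 with 2 or more libraries on each side. Of the 42 rows of the cluster that reached 30 reads, 23.8% met this rule, against 18.6% (55 of 295) of the other rows. The cluster thus shared this feature with the rest of the matrix.

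The widest jumps were on the Mirg side. The row of mir-495 held 1 to 10 reads in 20 libraries and 3758, 3900 and 4982 reads in the other 3, which were the retina of WT mouse 2 and the right eyes of the saline mouse and of mouse gRho mouse 5. Its upper level (median 388 CPM) lay above the median of every tested row of the cluster. The row of mir-487b held 1 to 14 reads in 21 libraries, 3548 in WT mouse 1 and 1497 in uninjected mouse 2. The row of mir-668 held 1 to 7 reads in 14 libraries and 153 to 926 in 9. The row of mir-376c was low in 6 libraries (1 to 3 reads) and high in 17 (174 to 498 reads). The row of mir-494 was low in 7 (1 to 3 reads) and high in 16 (67 to 171 reads). The row of mir-299a was at 0 in 2 mouse gRho libraries and held 38 to 221 reads in 21. The row of mir-410 held 216 reads in uninjected mouse 2 and 1 to 27 in the other 22 libraries. In the Meg3 and Rian blocks the same was seen for mir-493 (57 to 117 reads in 3 libraries, 1 to 13 in 20), mir-665 (45 to 131 reads in 19, 1 to 10 in 4) and mir-341 (115 to 405 reads in 16, 1 to 5 in 7).

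Most of these jumps fell within groups. The row that came closest to following the groups was mir-665, which was low in 2 of 2 WT libraries and in 2 of 11 mouse gRho libraries and high in all others. Kept in the fit, mir-665 passed the threshold for uninjected against WT (log2 difference 4.06, SE 0.65, adjusted p = 0.0196 by edgeR) and for mouse gRho against WT (4.33, SE 0.64, adjusted p = 0.00281). Between 2 and 7 of the 10 rows were at the upper level in a library. In the 8 mice with both eyes sequenced, the eyes of 1 mouse stood at different levels in 25 of 80 combinations of row and mouse (31.2%). For mir-494 this was so in 6 of 8 mice, and for mir-341 in 5 of 8. The upper level is bounded by the gap itself, so its spread is narrowed by the rule. Within it the coefficient of variation ran from 16.6% to 42.6% over the rows with 3 or more such libraries. None of the 10 rows was used in the comparisons below. The rows of mir-539 and mir-758 jumped in a like way without meeting the rule and stayed in the tests. The row of mir-539 held 1 to 4 reads in 7 libraries and 24 to 170 in 16, with the eyes at different levels in 5 of 8 mice. The row of mir-758 held 1 to 3 reads in 3 libraries and 28 to 86 in 20.

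**Figure D1:**
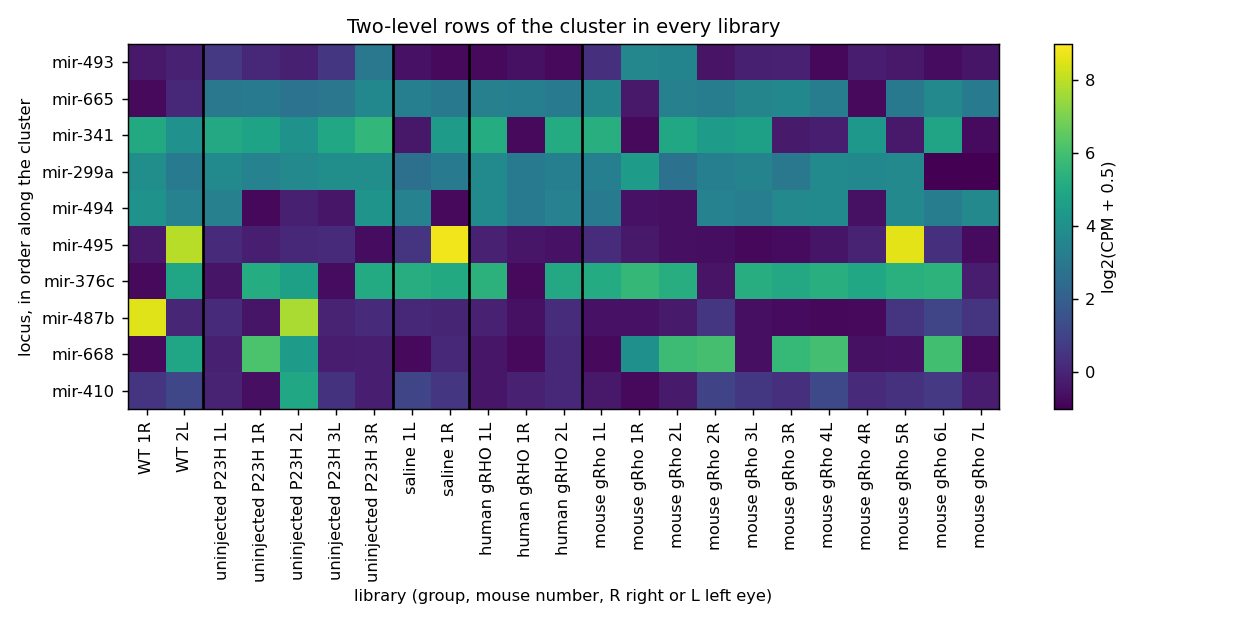
Level of the 10 rows set aside, as log2(CPM + 0.5) by colour, in each of the 23 libraries (columns, grouped by treatment, with mouse number and eye). Bright cells of mir-495 stand in 3 libraries of 3 different groups and those of mir-487b in 2 libraries.

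All of the remaining 37 rows passed the filter of at least 10 counts in at least 3 mice and were tested among 382 rows. Of the tested rows of the cluster, 3 (8.11%) had a median of at least 100 CPM over the 15 mice, against 11.3% of all tested rows, and 12 (32.4%) lay between 10 and 100 CPM, against 21.5%. A further 13 rows lay between 1 and 10 CPM and 9 under 1 CPM. The median of the rows' medians was 4.54 CPM, beside 2.57 CPM over all rows.

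All 903 mature rows together held only 10.4% to 19.5% of the mature miRNA reads used as denominator. Which reads of a locus its row counts is not known, so the order below is that of rows. It may not be that of the miRNAs themselves. The row of mir-382, on the Mirg side, had the highest median, 162 CPM (SD 32.6 over 15 mice). It was followed by mir-127 at 161 CPM (SD 41.9) and mir-434 at 137 CPM (SD 28.8), both antisense to Rtl1. The row of mir-382 lay above that of mir-127 in 11 of 15 mice, so their order was not the same in every mouse. The row of mir-434 lay above mir-485 (83.8 CPM, SD 20.2) in 15 of 15 mice, which made a step in the order. The rows of mir-485 and mir-369 (82.7 CPM, SD 28.8) were not separated, with mir-485 the higher in 9 of 15. A second step followed, with mir-369 above mir-411 (37.7 CPM, SD 7.72) in 14 of 15 mice. The rows of mir-411 and mir-409 (35.99 CPM, SD 9.08) changed places between mice. So did mir-136 (28.9 CPM), mir-329 (28.5 CPM) and mir-376b (28.3 CPM), and mir-376b lay above mir-433 (16.9 CPM) in 15 of 15. Below these came mir-379, mir-370, mir-770 and mir-154 at 16.3 to 11.8 CPM, then mir-376a at 7.35 CPM and mir-323 at 5.03 CPM. The rows of mir-758, mir-539, mir-431, mir-380, mir-300, mir-541, mir-543, mir-381, mir-337, mir-673 and mir-377 had medians from 4.67 to 1.24 CPM. The lowest were mir-134, mir-540, mir-667, mir-412, mir-544, mir-679, mir-1193, mir-1197 and mir-496a, from 0.711 to 0.286 CPM.

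**Figure D2:**
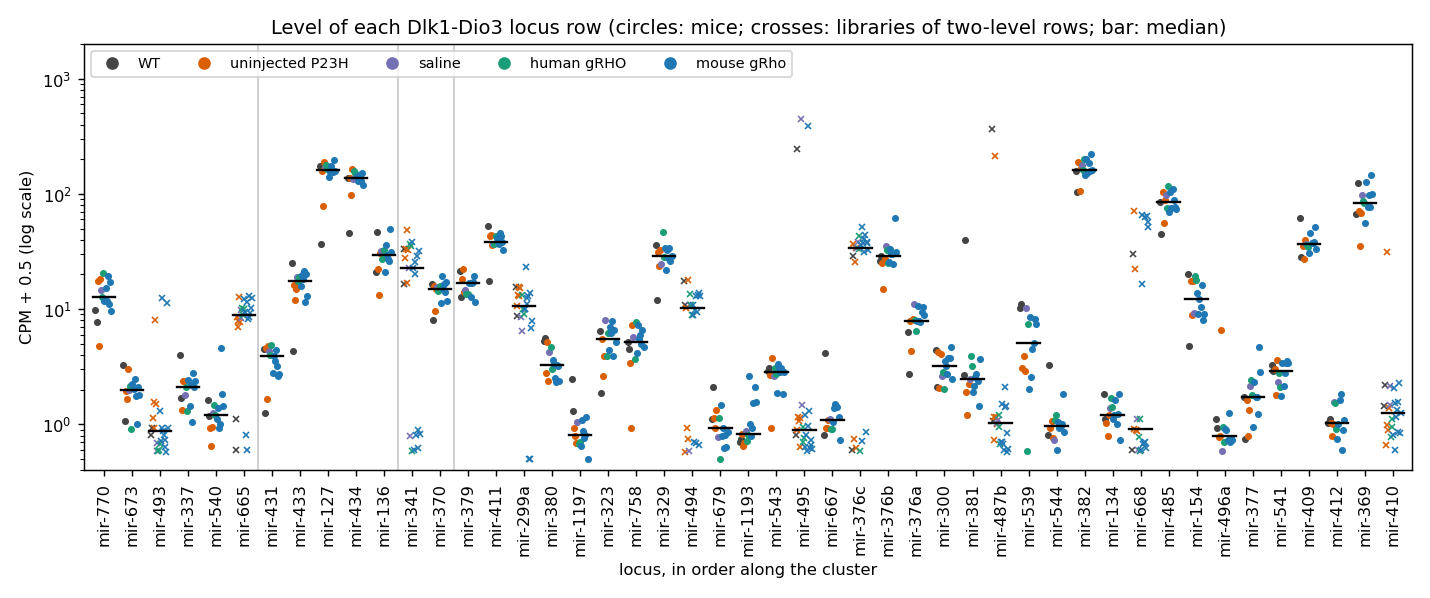
Level of the 47 rows in their order along the cluster, as CPM + 0.5 on a log axis. Circles are mice, crosses are libraries of the rows set aside, colours are groups, bars are medians and grey lines divide the blocks. The rows of mir-127, mir-434 and mir-382 have medians above 100 CPM.

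Some rows at high levels lie beside rows at low ones, and others do not. Antisense to Rtl1, mir-431 (3.38 CPM) and mir-433 (16.9 CPM) lie beside mir-127 and mir-434, and on the Mirg side mir-382 lies beside mir-544 (0.469 CPM) and mir-134 (0.711 CPM). Among neighbours with like levels were mir-127 and mir-434, and mir-323 (5.03 CPM) and mir-758 (4.67 CPM). These pairs were chosen for their values. Summed over the 37 rows, the 6 highest gave 72.7% of the level (61.4% to 75.2% across mice). The 27 rows of the Mirg side gave 59.9%, the 5 rows antisense to Rtl1 36.7%, the 4 rows of the Meg3 side 1.88% and mir-370 of the Rian side 1.53%.

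Reads of the cluster outside the mature rows were few. Among 231 precursor rows, 28 belonged to the cluster and held 665 of 20784 reads, between 9 and 50 in a library. The precursor row of mir-410 had the most, 201 reads spread over 23 of 23 libraries, followed by mir-377 with 110. The mature row of mir-410 held over 27 reads in 1 library only. Stemloop rows held 18 reads in 5 rows, and no unannotated row belonged to the cluster. Of 15 further loci of the region on a separate list, 6 had a mature row. Of those, mir-666 (median 3.84 CPM) and mir-3072 (2.01 CPM) were tested, and neither passed the threshold in any comparison.

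The summed level of the 37 rows was 965 and 602 CPM in the WT mice, 934, 575 and 969 CPM in the uninjected mice, and 968 CPM in the saline mouse. It was 955 and 1007 CPM in the human gRHO mice, and ran from 808 through a median of 899 to 1154 CPM in the 7 mouse gRho mice. The groups overlapped, and the lowest sums belonged to uninjected mouse 2, a poor library, and to WT mouse 2. The sum antisense to Rtl1 was 360 and 133 CPM in WT, 334, 202 and 401 CPM in uninjected mice, and 321 to 418 CPM in mouse gRho mice. WT mouse 2 thus took 22.0% of its summed level from that block, against up to 41.4% in another mouse, and 75.1% from the Mirg side.

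**Figure D3:**
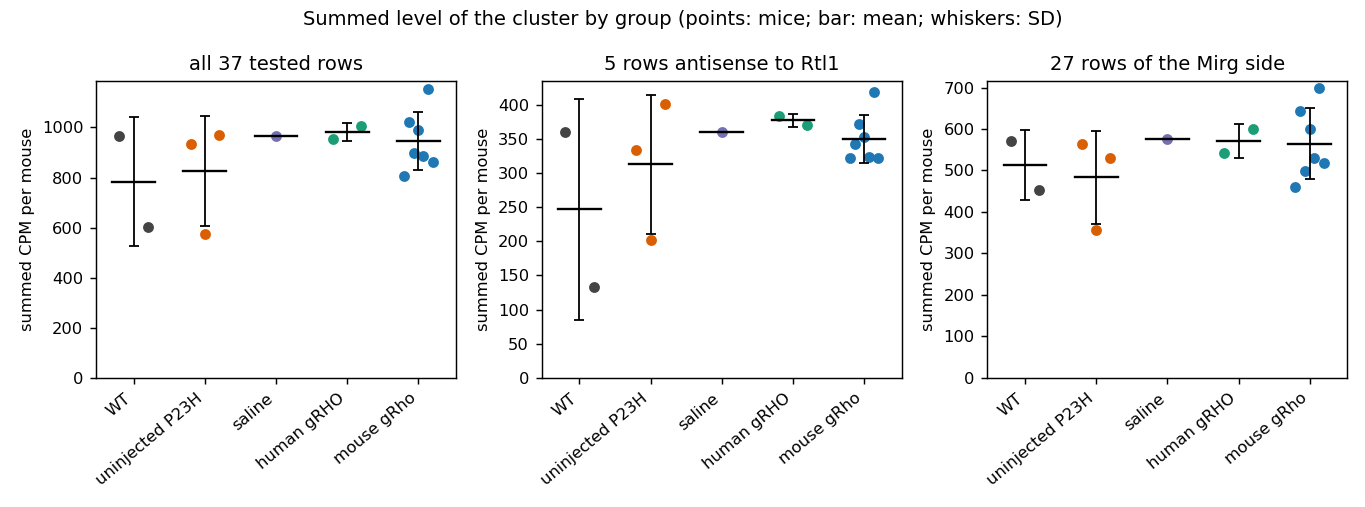
Summed CPM per mouse for the 37 tested rows, the 5 rows antisense to Rtl1 and the 27 rows of the Mirg side, by group. Points are mice, bars are means and whiskers are SD (no SD for the single saline mouse), and the groups overlap in each panel.

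Between eyes of the same mouse the members differed by a median of 0.288 on the log2 scale (8 mice). The median SD within a mouse was 0.41 and between mice 0.52. In mouse gRho mouse 1 the summed level was 554 CPM in the poor right eye and 1059 CPM in the left eye, with a median difference of right minus left of -0.60. In the other 7 mice that median lay between -0.17 and 0.27. The poor right eye had the lowest level of the 23 libraries for 12 of 37 rows.

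Uninjected P23H+/- mice were set against WT mice to ask what differs with the mutation. Of the 37 rows, 1 passed the threshold, an adjusted p of 0.05 over 382 rows (edgeR quasi-likelihood with Benjamini-Hochberg adjustment), against 1.57% of all tested rows. That row, mir-381, is on the Mirg side. Its level was 2.18 and 39.6 CPM in the WT mice, 1.40, 0.716 and 1.75 CPM in the uninjected mice, 2.00 CPM in the saline mouse, 3.45 and 2.72 CPM in the human gRHO mice, and 0.938 to 3.18 CPM (median 1.86) in the mouse gRho mice. Only WT mouse 2 was high, with 635 reads against 5 to 55 in each other library, and WT mouse 1 lay within the range of the P23H+/- mice. The fitted difference was -4.58 (log2, SE 0.88, adjusted p = 0.0278 by edgeR). Without WT mouse 2 it was -0.89 (adjusted p = 0.738), and the call also ended when any uninjected mouse was left out. The gap in the sorted values of mir-381 was 2.878, with 1 library on its upper side, so mir-381 was not set aside by the rule for jumping rows. It would be by a rule with a gap of 2 and any number of libraries.

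In the fit, 6 of the 37 rows were higher and 31 lower in uninjected mice. The median log2 difference was -0.39, beside -0.09 over all 382 rows, of which 45.8% were higher. Fitted differences carry the normalization (TMM) factors, which the CPM values do not. These were 0.964 and 0.734 in the WT mice, and 1.01, 1.18 and 1.26 in the uninjected mice. In CPM the mean summed level was 784 in WT and 826 in uninjected mice. Fitted signs therefore need not be those of the CPM values. An unadjusted p under 0.05 was reached by 9 of the 37 rows (24.3%) and by 16.5% of all rows. Next to mir-381 the smallest p belonged to mir-667 and mir-1197. The row of mir-667 stood at 0.311 and 3.68 CPM in WT and at 0.439, 0.430 and 0.582 CPM in uninjected mice. Its difference of -2.64 (log2, SE 0.80, adjusted p = 0.127) again rested on WT mouse 2, and was 0.46 without that mouse. The row of mir-1197 was at 1.97 and 0.810 CPM in WT and at 0.439, 0.286 and 0.194 CPM in uninjected mice, without overlap. Its difference of -2.42 (log2, SE 0.83) did not pass the threshold (adjusted p = 0.165).

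The abundant rows did not pass the threshold in this comparison. For mir-127 the levels were 174 and 36.3 CPM in WT, and 157, 78.6 and 187 CPM in uninjected mice. The WT mice thus lay on both sides of all uninjected mice but the highest, and the difference was 0.11 (log2, SE 0.42). For mir-434 they were 137 and 45.7 CPM against 136, 98.0 and 164 CPM, with a difference of 0.18 (SE 0.31). For mir-382, at 157 and 102 CPM against 187, 106 and 167 CPM, the groups overlapped and the difference was -0.15 (SE 0.31). For mir-485, at 83.8 and 44.6 CPM against 104, 55.3 and 87.4 CPM, it was -0.01 (SE 0.34). For mir-411, at 51.8 and 17.0 CPM against 42.4, 43.4 and 35.7 CPM, it was -0.11 (SE 0.30). The row of mir-369 went the other way, with WT mouse 2 the higher, at 66.5 and 124 CPM in WT against 71.1, 35.0 and 67.4 CPM. Its difference was -1.21 (SE 0.43, adjusted p = 0.165 by edgeR). For mir-382, mir-485 and mir-411 the mean CPM was higher in uninjected mice (153, 82.2 and 40.5) than in WT (130, 64.2 and 34.4). Their fitted differences were negative after scaling by the TMM factors, which the CPM values do not carry.

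WT mouse 2 had the highest level of the 15 mice in 6 of the 37 rows and the lowest in 13, and WT mouse 1 the highest in 8 and the lowest in 0. Low in WT mouse 2 were mir-127, mir-434, mir-433 (3.80 CPM, against 11.2 to 24.8 CPM in the other mice), mir-382 and mir-485. High there were mir-381, mir-667, mir-380, mir-539 and mir-544. With WT mouse 1 left out, the WT group is WT mouse 2 alone, which is then assumed to vary like the mice of the other groups. Under that assumption 8 of 37 rows passed the threshold for uninjected against WT, among 60 rows in all (15.7% of those tested). They were mir-433, mir-434 and mir-127, higher in uninjected mice, and mir-136, mir-381, mir-544, mir-667 and mir-369, lower. With WT mouse 2 left out, none passed. The library of WT mouse 2 also stood apart in other lists, with 67.4 CPM of the skeletal muscle list (2 of 5 loci used) against 109 to 1149 CPM elsewhere, and the part of this in the result was not tested.

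**Figure D4:**
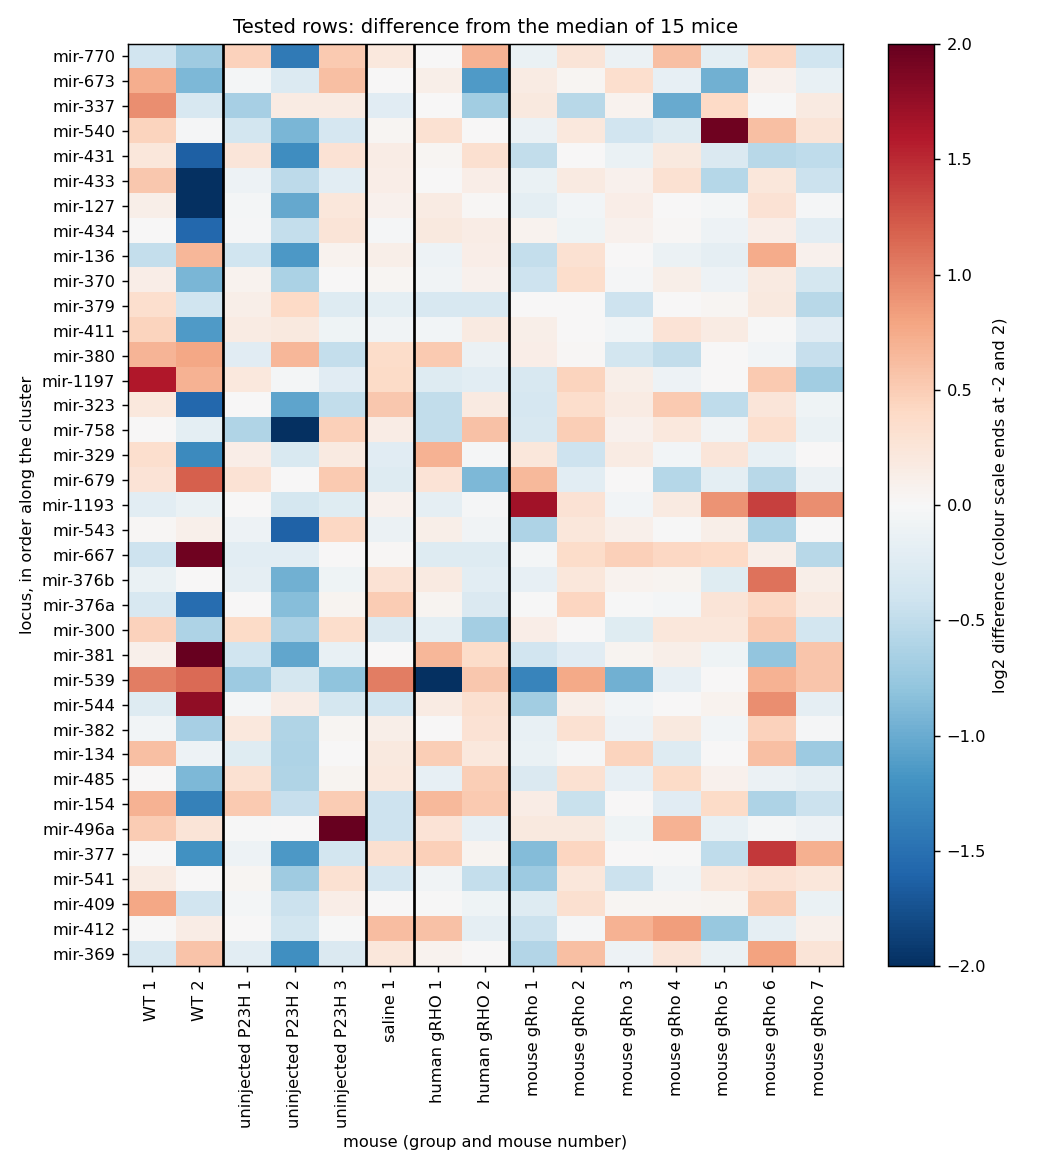
Difference of log2(CPM + 0.5) from the median of the 15 mice, by colour, for the 37 tested rows (in order along the cluster) and the 15 mice (columns, grouped by treatment). The colour scale is cut at both ends. WT mouse 2 has both deep blue cells (such as mir-127 and mir-433) and deep red ones (such as mir-381 and mir-667). Cells as deep also stand in other mice, such as mir-539 in human gRHO mouse 1, and uninjected mouse 2 is mostly blue.

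The comparison of mouse gRho with uninjected mice addressed treatment with nanoparticles of the mouse gene as a whole. It cannot separate the gene from its delivery, for which the saline mouse is the nearest control. Of the 37 rows, 0 passed the threshold by edgeR, as did 0 rows (0%) of all 382. DESeq2 also called 0 of the 37. An unadjusted p under 0.05 was reached by 6 of the 37 rows, against 4.71% of all rows. By sign, 30 of the 37 rows were higher and 7 lower, with a median log2 difference of 0.36, beside 0.08 over all rows, of which 57.6% were higher. The uninjected group of 3 mice includes the poor library, and without both poor libraries the median was 0.26.

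The smallest p in this comparison belonged to 3 rows. The row of mir-496a was at 0.279, 0.286 and 6.08 CPM in uninjected mice, and at 0.206 to 0.768 CPM (median 0.268) in mouse gRho mice. Only uninjected mouse 3 was high, and the difference was -2.24 (log2, SE 0.71, adjusted p = 0.533 by edgeR). The row of mir-1193 was at 0.319, 0.143 and 0.194 CPM in uninjected mice, and at 0.286 to 2.13 CPM (median 1.03) in mouse gRho mice. The highest value was that of mouse 1 and came from its poor right eye (40 reads, 4.07 CPM), while its left eye held 2 reads (0.201 CPM). The groups overlapped at their edges, the WT mice were at 0.207 and 0.249 CPM, and the difference was 2.14 (SE 0.71, adjusted p = 0.569 by edgeR). Without both poor libraries it was 1.51 (SE 0.84). The row of mir-376b was at 24.9, 14.3 and 26.6 CPM in uninjected mice, and at 23.95 to 60.8 CPM (median 29.6) in mouse gRho mice. The low value was that of the poor library and the high one that of mouse gRho mouse 6, and the difference was 0.77 (SE 0.29, adjusted p = 0.745).

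Among the abundant rows, the mouse gRho mice ran from 140 to 196 CPM for mir-127, from 119 to 151 CPM for mir-434 and from 146 to 223 CPM for mir-382. All 3 ranges lay above the value of uninjected mouse 2 and overlapped the other uninjected mice. The differences were 0.40 (SE 0.32), 0.23 (SE 0.24) and 0.36 (SE 0.24) on the log2 scale. For mir-485 (68.5 to 109 CPM) and mir-411 (32.4 to 45.7 CPM) they were 0.22 (SE 0.26) and 0.13 (SE 0.23). The row of mir-369 ran from 54.9 to 145 CPM, with a difference of 0.92 (SE 0.34, adjusted p = 0.745 by edgeR).

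**Figure D5:**
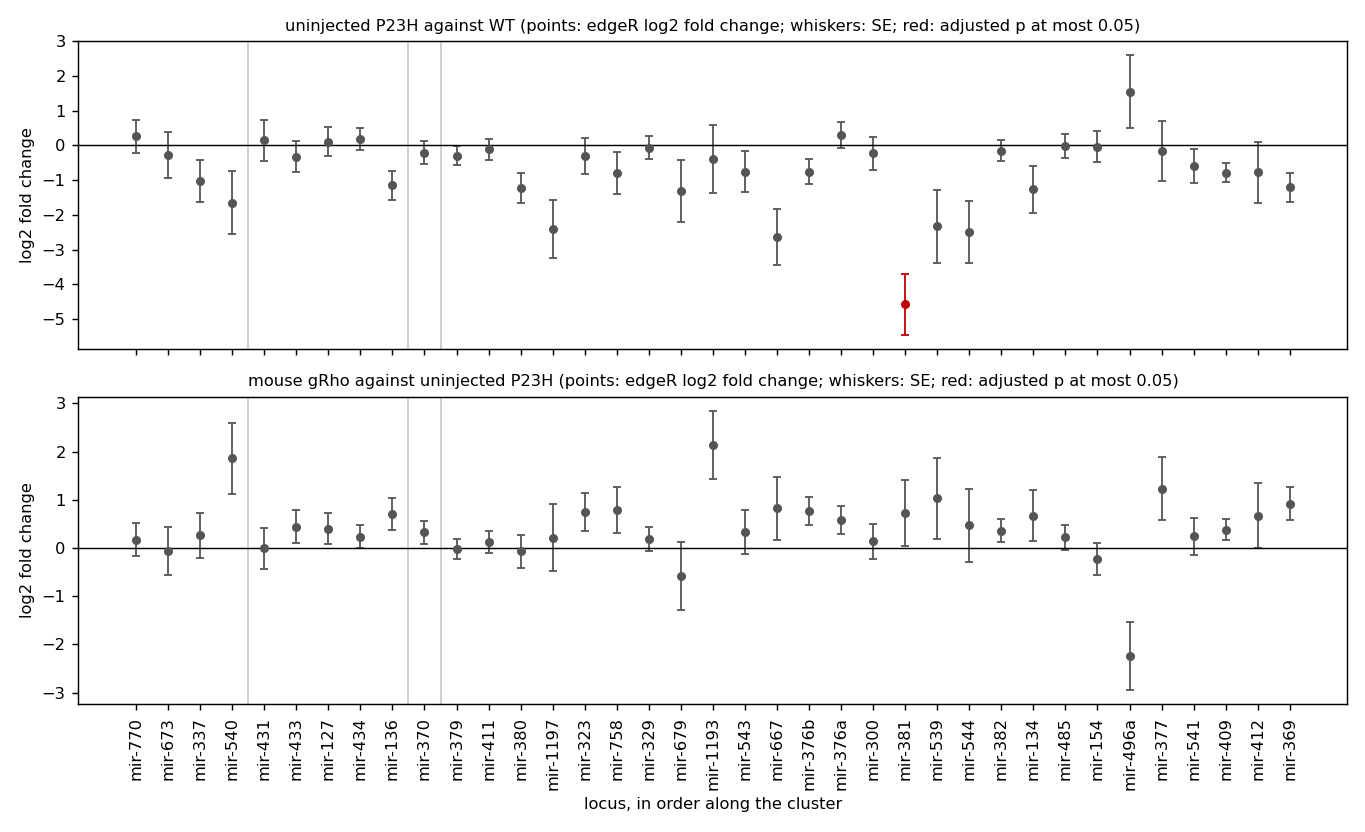
Fitted log2 fold change of each tested row, in order along the cluster, for uninjected against WT (top) and mouse gRho against uninjected (bottom). Whiskers are SE and red marks an adjusted p of at most 0.05. Only mir-381 is red in the top panel and no row in the bottom one, and both panels use the same 3 uninjected mice.

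The human gRHO and saline mice were set against the same 3 uninjected mice, so these comparisons share their controls with the one before. For human gRHO, 0 of 37 rows passed the threshold (background 0%) by edgeR, also 0 by DESeq2. An unadjusted p under 0.05 was reached by 1 row (2.7%), a share like that of all rows (2.62%). The median was 0.44, beside 0.01 over all rows, with 28 rows higher and 9 lower, while 50.8% of all rows were higher. The smallest p belonged to mir-496a, at 0.448 and 0.202 CPM in human gRHO mice, with a difference of -2.39 (log2, SE 1.09, adjusted p = 0.930). The row of mir-134, at 1.21 and 0.908 CPM against 0.519, 0.286 and 0.711 CPM, differed by 1.19 (SE 0.66). That of mir-369, at 86.6 and 82.7 CPM, differed by 0.71 (SE 0.43), and neither passed. For the single saline mouse, whose spread is assumed to be like that of the others, 0 of 37 rows passed by edgeR (background 0%) and 0 by DESeq2. There 4 had an unadjusted p under 0.05 (10.8%, against 3.4% of all rows). By sign 30 were higher and 7 lower, with 49.7% of all rows higher, and the median was 0.51, beside -0.01 over all rows.

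Set against WT, mouse gRho mice had 1 of 37 rows past the threshold, against 3.14% of all rows. It was again mir-381, with a difference of -3.86 (log2, SE 0.64, adjusted p = 0.00567 by edgeR), and of -0.17 without WT mouse 2. Here 16 rows were higher and 21 lower, with a median of -0.10, beside -0.01 over all rows. Of all rows 49.2% were higher. An unadjusted p under 0.05 was reached by 7 of the 37 rows (18.9%) and by 18.1% of all rows. Without WT mouse 1, 9 rows of the cluster passed among 64 rows in all (16.8% of those tested). For human gRHO against WT, 0 passed by edgeR (background 0%), DESeq2 called 1 (mir-381) among 5 rows in all, and 3 (8.11%) reached an unadjusted p under 0.05, against 9.95% of all rows. Among the treated groups, mouse gRho against saline, human gRHO against saline and human gRHO against mouse gRho each had 0 of 37 rows past the threshold by edgeR and by DESeq2 (background 0%), with medians of -0.12, -0.13 and -0.05. The numbers with an unadjusted p under 0.05 were 0, 0 and 1, and the shares over all rows were 0.785%, 1.31% and 2.88%.

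Co-variation across mice was described for the 25 rows with a median of at least 20 counts. Over their 300 pairs, the median Spearman correlation of log2(CPM + 0.5) across 15 mice was 0.23, and 73.0% of the pairs were above 0. Over the 16836 pairs of 184 other rows the median was 0.11, with 62.5% above 0, and between rows of the cluster and other rows it was 0.01. All pairs share the same 15 mice, the same denominators and the same poor libraries. With each mouse taken as its deviation from its group mean, the medians were 0.33 in the cluster and 0.10 among other rows (14 mice). In the groups of 2 mice, WT and human gRHO, such deviations are equal and opposite by construction. These mice are therefore not separate points. Without both poor libraries, and with no deviations taken, the medians were 0.11 and 0.12. The cluster's median was then no longer above that of the other rows. With places counted among these 25 rows only, so that other loci can lie between 2 of them, the medians were 0.31 for consecutive rows and 0.23 for rows at least 10 places apart. Among the 5 rows antisense to Rtl1 the median was 0.44 (10 pairs), and among those of the Mirg side 0.15 (153 pairs). Without both poor libraries these medians were 0.21 and 0.07.

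Of the 300 pairs, 18 had a Spearman adjusted p of 0.05 or less (permutation test with 100000 resamples, Benjamini-Hochberg over 300), 17 positive and 1 negative. The 17 positive ones also passed with Pearson's r. The matching share among pairs of other rows is not given here, so the count of 18 cannot be read as particular to the cluster. The upper quartile of rho was 0.42 over the 300 pairs and 0.35 over the 16836 pairs of other rows. The pairs given here were chosen for their values. The rows of mir-433 and mir-323 correlated most (rho = 0.90, permutation p = 1e-05, the smallest that the resamples can give, adjusted p = 0.003, r = 0.87, permutation p = 6e-05, adjusted p = 0.0026, n = 15), with r = 0.76 after leaving out the 2 mice farthest from the median. They lie in different blocks. The rows of mir-136 and mir-369 also lie in different blocks (rho = 0.86, permutation p = 0.00012, adjusted p = 0.009, r = 0.93, permutation p = 2e-05, adjusted p = 0.0012), with r = 0.82 without the 2 farthest mice. For the neighbours mir-127 and mir-434, rho was 0.78 (permutation p = 0.001, adjusted p = 0.025) and r was 0.96 (permutation p = 0.00013, adjusted p = 0.0041), but r was 0.58 without the 2 farthest mice. The deviations from group means gave rho of 0.89, 0.89 and 0.82 for these 3 pairs, with the WT and human gRHO mice mirrored as said above.

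The negative pair was mir-379 and mir-381 (rho = -0.74, permutation p = 0.0025, adjusted p = 0.045), with r = -0.55 (permutation p = 0.017, adjusted p = 0.075) and r = -0.63 without the 2 farthest mice. The rows of mir-329 and mir-154 correlated positively (rho = 0.83, permutation p = 0.00025, adjusted p = 0.015, r = 0.87, permutation p = 1e-05, adjusted p = 0.001), with r = 0.78 without the 2 farthest mice. Of single rows, mir-382 and mir-433 had the highest median correlation with the other 24 (0.45 and 0.41), and mir-380 the lowest (-0.21). Over the 300 pairs rho ran from -0.74 to 0.90, and the part of counting error in the weaker correlations was not tested.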

How the data were processed

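Small RNA libraries of 23 retinas were used. The authors deposited raw read counts per miRNA locus and class, with a table of read counts per alignment class. The submitters' processing notes name DESeq2 without a version. Per the labels' protocols, retinal RNA was harvested by Trizol, and a NEXTflex small RNA kit was used. The aligner, counter, annotation and build were not given in the sources used here. Coordinates are therefore left out. The 903 mature rows summed to 10.4% to 19.5% (median 13.4%) of the alignment table's mature miRNA reads, which served as the denominator. No sample column was left unused (0 columns). No 2 libraries were merged as duplicates.

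Eyes were summed to 15 mice by the titles. This reading is an inference, and the titles of the WT libraries, which have another form, were counted as 2 mice. If it is wrong, p-values measure only the spread between these sums, which may be technical. Counts were tested with edgeR 4.0.16 in R 4.3.3 (robust quasi-likelihood, 5 groups in 1 fit, TMM factors), for rows reaching 10 counts in 3 or more mice, with p-values adjusted by Benjamini-Hochberg over all 382 rows and a threshold of 0.05. DESeq2 1.42.0 was an alternative. The median standard error over the members was smallest for mouse gRho against uninjected (0.38) and largest for human gRHO against saline (0.66). Scripts were tested on simulated data. Alternatives were other scalings, filters, rules for jumping rows, each library as a sample, poor or rRNA-rich libraries left out, and each mouse left out. The members, blocks and lists were chosen with earlier results of these data known. Rows described in full were the 6 highest by median, every row past the threshold, and the 3 smallest p in each of the first 3 comparisons. Rows of WT mouse 2 and the correlated pairs were chosen after their values were seen.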

Additional observations from a re-analysis of the deposited data

Results flagged for a closer look

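Within the 7 mouse gRho mice, 5 of the 37 rows had 1 mouse far above the others by Dixon's ratio, taken on CPM. The test flags about 1 in 20 groups by chance when values are normally distributed. The share flagged among all 382 tested rows is not given here, so the count cannot be read as particular to the cluster. The row of mir-376b was at 60.8 CPM in mouse 6, with the next mouse at 33.1 CPM. The row of mir-544 was also high in mouse 6, at 1.34 CPM against 0.548 CPM. The row of mir-540 was at 4.13 CPM in mouse 5, against 1.34 CPM in the next. The row of mir-679 was at 0.961 CPM in mouse 1, against 0.428 CPM. The row of mir-496a was at 0.768 CPM in mouse 4, against 0.405 CPM. Except for mir-376b, these rows had medians under 1 CPM over the 15 mice.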

How the results depend on the processing

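Numbers of rows of the cluster past the threshold changed as follows, with those over all rows in brackets. For uninjected against WT (1 row), DESeq2 gave 2 (14, against 6 in the edgeR fit). It was 0 (0) without both poor libraries, with only the compared groups in the fit, or with the wider rule for jumping rows. That rule was chosen after seeing the data. In 6 libraries rRNA made up over 3% of aligned reads. They include all libraries of uninjected mice 2 and 3 (3.00% to 5.14%), while the WT libraries held 0.201% and 0.315%. Leaving these 6 out kept only 1 uninjected mouse, so no count is given for that alternative. With the jumping rows kept, 1 (1) passed, mir-665 in place of mir-381. Leaving out single mice gave 0 to 8 (0 to 60). For mouse gRho against WT (1 row), DESeq2 (18, against 12), each library as a sample (19) and only the compared groups (10) each gave 2, the jumping rows kept gave 3 (15), the wider rule gave 0 (8), and leaving out single mice gave 0 to 9 (0 to 64). For human gRHO against WT (0 rows), DESeq2 (5), the jumping rows kept (1) and each library as a sample (4) each gave 1, and leaving out single mice gave 0 to 7 (0 to 46). For human gRHO against saline and against mouse gRho, leaving out single mice gave 0 to 1 (0 to 1). That call was mir-539 without human gRHO mouse 2, and it rests on human gRHO mouse 1, whose eyes held 1 read each, the low level of this jumping row. For mir-667, uninjected against WT ran from -3.43 to 0.46 when single mice were left out. With total reads as denominator the mean summed level was 537 CPM, against 906 CPM. The median correlation of 0.23 (0.11 among other rows) was 0.34 (0.15) by Pearson, 0.27 (0.15) with total reads as denominator and 0.26 (0.02) with TMM factors. It was 0.31 (0.14) for rows with a median of at least 50 counts and 0.11 (0.12) without both poor libraries. Without these and WT mouse 2 it was 0.091 (0.088), a setting chosen after seeing the data. The median differences of the cluster kept their sign in uninjected against WT (-0.67 to -0.20) and in mouse gRho against uninjected (0.14 to 0.49) under every alternative run. None of these runs scaled to mature miRNA reads alone, as the CPM values do. No paired analysis was possible because mouse numbers do not pair animals across groups. Groups of 1 to 3 mice limit all comparisons, and counting error limits rows under 1 CPM.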
